A study of Mus musculus with 16 samples.

Results

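The genes described here are 40 DNA replication and mitosis genes, followed across sorted cells of the mouse olfactory mucosa, the tissue that holds the olfactory sensory neurons (OSNs). They, and the gene lists set beside them further on, were chosen by symbol with earlier results of these data known. Their counts are therefore no independent test. A probe set (a group of array probes read as 1 value for a gene) carried the symbol of 38 of the 40. Each had 1 probe set, among 19572 tested probe sets that had 1 gene symbol. For Ccnb1 and Mcm7 no probe set with that symbol was found in the annotation used here. Expression was read on Clariom S arrays from S100a5-tauGFP mice, in which a green fluorescent protein reports S100a5, a calcium-binding protein gene of OSNs. Cells from pools of 3 mice were sorted into 4 groups of 4 arrays each: GFP+ and GFP- cells of mice given 100% citrus accord, and GFP+ and GFP- cells of mice given vehicle (filtered air). The 24 mice, of both sexes and 7 to 12 weeks old, all carried the reporter and all spent 40 h in individual clean-air chambers at 3.1 L/min, and from 26 h on each received 10 s pulses of its stimulus every 20 min. The labels name no marker besides GFP, so the GFP- gate can hold every cell of the dissociated mucosa that lacked the reporter, and tauGFP reports the S100a5 gene, not the cell cycle.

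Dividing cells copy their DNA once and then divide it. The minichromosome maintenance (MCM) proteins open the origins, the enzymes of deoxynucleotide synthesis supply the building blocks, and cyclins with their kinases drive the steps, while mitotic kinases, kinetochore proteins, spindle motors and the anaphase-promoting complex (APC/C) part the chromosomes. The olfactory epithelium makes new OSNs throughout life, and globose basal cells are its main dividing progenitors; mature OSNs do not divide. Many replication genes are known E2F targets, and many mitotic genes are known targets of the DREAM and MuvB complexes, which act through CHR elements. The CCAAT box is the site of another factor, NF-Y.

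Promoters of 34 of the 40 genes were present in the RefSeq promoter table (GRCm38.p6), each as 250 bases before and 50 bases after the gene's start. Those of 4 genes are shown because they had the largest GFP+ to GFP- difference, averaged over both stimuli, among the origin and fork genes (Mcm6 and Mcm2) and among the genes of the spindle checkpoint, mitotic kinases, kinetochore and spindle (Ube2c and Plk1), a group that leaves out the cyclins, Cdk1, Mki67 and Top2a. Capitals mark the letters of 3 motifs on either strand: the CHR element (letters TTTGAA), the CCAAT box (its own letters) and the E2F site (TTTNNCGC). The windows are chr1:128359656-128359955 on the minus strand for Mcm6, chr6:88898731-88899030 on the minus strand for Mcm2, chr2:164769679-164769978 on the plus strand for Ube2c and chr7:122159185-122159484 on the plus strand for Plk1, all printed 5′ to 3′ on the strand of the gene.
Mcm6: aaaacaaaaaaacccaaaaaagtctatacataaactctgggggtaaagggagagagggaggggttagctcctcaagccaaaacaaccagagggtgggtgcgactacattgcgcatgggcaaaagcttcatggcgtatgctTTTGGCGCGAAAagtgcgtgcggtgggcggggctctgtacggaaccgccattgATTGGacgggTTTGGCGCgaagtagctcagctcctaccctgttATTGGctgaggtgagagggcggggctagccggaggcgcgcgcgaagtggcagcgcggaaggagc
Mcm2: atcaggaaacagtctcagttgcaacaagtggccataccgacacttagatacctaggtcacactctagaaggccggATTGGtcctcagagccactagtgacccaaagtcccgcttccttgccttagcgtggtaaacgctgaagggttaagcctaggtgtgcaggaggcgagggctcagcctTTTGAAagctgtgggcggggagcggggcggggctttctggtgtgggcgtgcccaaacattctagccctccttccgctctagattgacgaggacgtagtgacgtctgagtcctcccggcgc
Ube2c: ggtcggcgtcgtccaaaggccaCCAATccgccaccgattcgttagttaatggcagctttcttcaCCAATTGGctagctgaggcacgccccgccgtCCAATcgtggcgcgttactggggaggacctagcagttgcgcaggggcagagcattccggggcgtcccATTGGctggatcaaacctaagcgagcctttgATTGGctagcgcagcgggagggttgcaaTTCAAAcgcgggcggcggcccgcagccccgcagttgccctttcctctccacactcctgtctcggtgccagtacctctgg
Plk1: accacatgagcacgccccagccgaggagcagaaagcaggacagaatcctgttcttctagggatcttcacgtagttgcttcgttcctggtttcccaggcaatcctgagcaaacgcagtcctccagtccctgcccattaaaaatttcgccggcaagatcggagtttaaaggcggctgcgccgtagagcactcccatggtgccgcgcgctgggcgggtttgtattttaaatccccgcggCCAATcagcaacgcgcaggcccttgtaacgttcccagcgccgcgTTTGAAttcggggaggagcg

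The Mcm6 window held 3 matches to the E2F letters, a pair of which overlapped on opposite strands 110 to 99 bases before the start, and 2 CCAAT boxes. Ube2c held 6 CCAAT boxes, 2 of them overlapping on opposite strands, and a CHR element 29 to 24 bases before its start. In Plk1 a CCAAT box lay 14 to 10 bases before the start and a CHR element 31 to 36 bases after it, and in Mcm2 a CHR element lay 70 to 65 bases before it. Over the 34 promoters, 18 held TTTGAA (52.9%, against 17.9% of all 32851 promoters of the same length), 28 held CCAAT (82.4%, against 37.4%) and 7 held TTTNNCGC (20.6%, against 5.17%). TTTGAA lay in 12 of 16 promoters of checkpoint, mitotic kinase, kinetochore and spindle genes, in 2 of 12 of replication and deoxynucleotide genes and in 4 of the 6 others (Ccnb1, Ccnb2, Ccne1, Cdk1, Mki67 and Top2a). TTTNNCGC lay in 0 of those 16, in 6 of those 12 and in 1 of those 6, that of Cdk1. A match is a run of letters only, and no binding was measured.

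S100a5, the gene behind the reporter, was higher in GFP+ cells by 1.88 ± 0.13 in citrus and 1.91 ± 0.13 in vehicle, as the gate requires. All levels are log2 signals as deposited, and each difference is given as GFP+ minus GFP-, or citrus minus vehicle, with the standard error of limma's fit over all 16 arrays. A gene "passed" where its Benjamini-Hochberg adjusted p over all 19572 probe sets was under 0.05. The control level of an array is the 95th percentile of its 5222 negative-control probe sets, which ran from 8.75 to 9.71 over the arrays, with control medians of 4.84 to 5.37. Of the 38 measured genes, 31 lay under the control level on all 16 arrays, so most differences below are between dim signals and no fold is given for them. The 7 others were Mki67, Ccnb2, Pcna, Cdc45, Rrm1, Ube2c and Plk1. Of the 38 genes, only Pcna exceeded the control level on all 16 arrays, where 21.6% of all tested probe sets did. Those above the control level on all 4 arrays of a group numbered 2 in citrus GFP+ cells, 4 in citrus GFP- cells, 1 in vehicle GFP+ cells and 3 in vehicle GFP- cells. In sorted bulk samples, fewer dividing cells and less RNA per dividing cell cannot be told apart. The mean level of the 38 genes lay between 5.21 and 5.33 on the citrus GFP+ arrays and between 6.85 and 7.51 on the citrus GFP- arrays. In vehicle it lay between 5.17 and 5.31 on the GFP+ arrays and between 6.44 and 7.22 on the GFP- arrays, so the gates did not overlap and the GFP+ arrays sat close to the control medians.

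**Figure D1:**
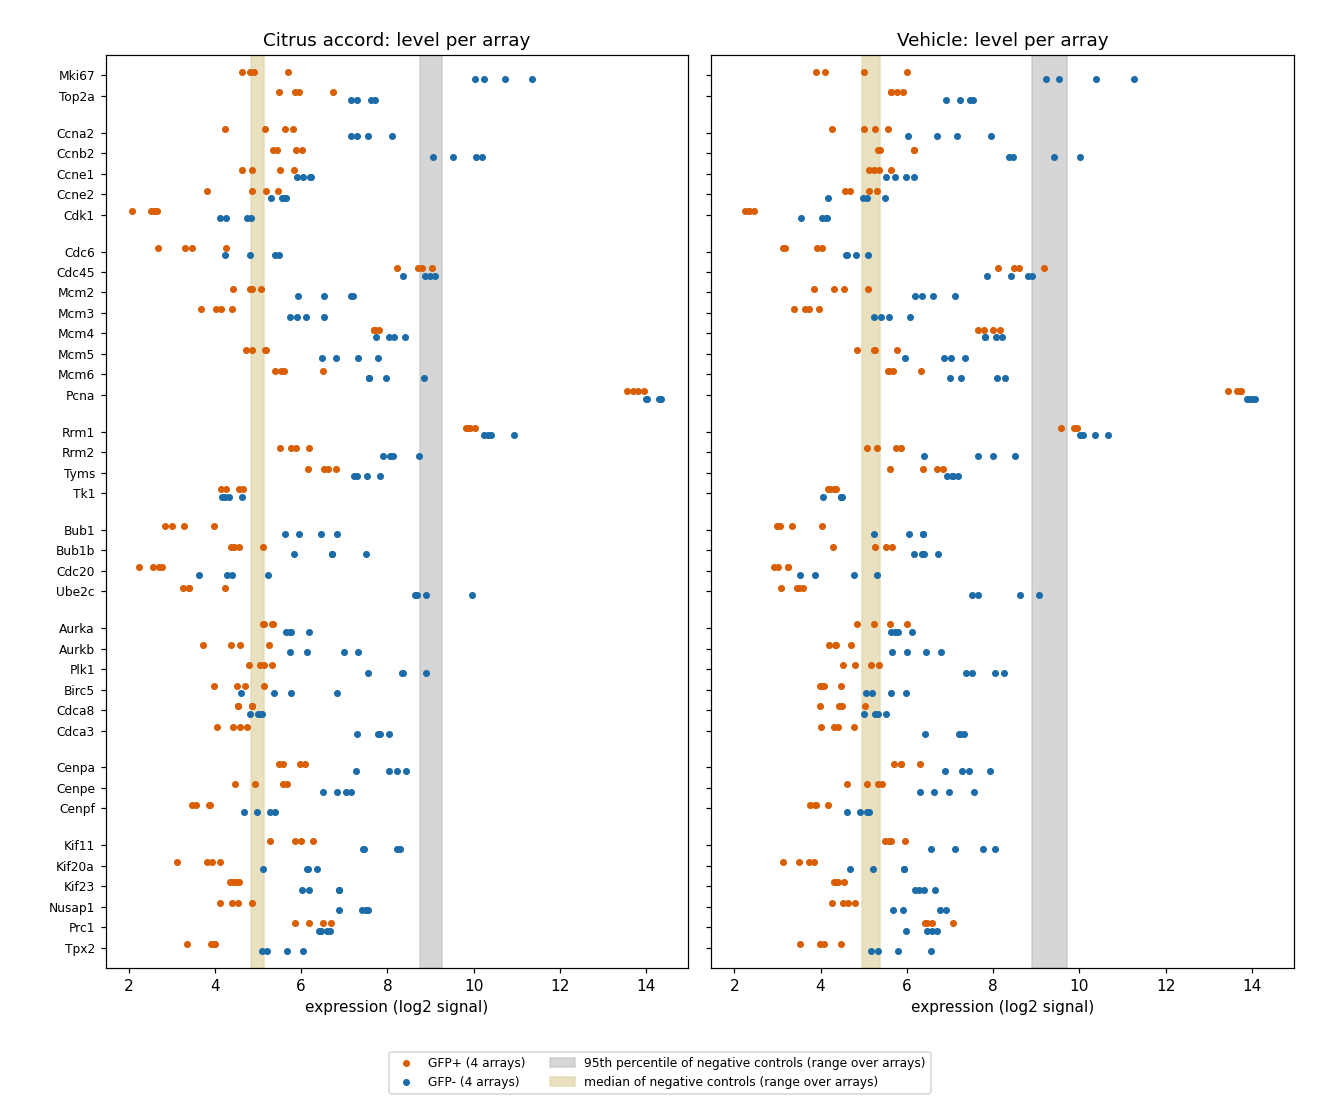
Each point is the level of a gene (log2 signal, x axis) on 1 array, GFP+ in orange above GFP- in blue, for citrus (left) and vehicle (right), with genes ordered by role down the page. Grey and tan bands give the range over arrays of the 95th percentile and of the median of the negative controls. Most GFP+ points lie near or below the tan band, and Mki67 in GFP- cells lies at or above the grey band.

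The first comparison asked whether cells that carry the reporter differ in cell cycle transcripts from cells that lack it. In citrus, 31 of 38 genes were lower in GFP+ cells, where 10.8% of all tested probe sets were, and 0 were higher, where 7.44% were (limma; 0 higher at an unadjusted p under 0.05 too, where 17.0% were). In vehicle, 29 of 38 were lower, where 9.97% of all tested probe sets were, and 0 were higher, where 9.05% were (0 higher at an unadjusted p under 0.05, where 17.8% were). The median difference of the 38 genes was -1.95 in citrus and -1.58 in vehicle, beside medians of 0.13 and 0.11 over all tested probe sets. With the pool as a block the counts were also 31 and 29, beside 11.5% and 10.7% of all tested probe sets. In both stimuli 28 genes were lower, as were 8.57% of all tested probe sets, and 6 passed in neither. Ccne1, Pcna and Rrm1 passed in citrus and not in vehicle, and Cdca8 in vehicle and not in citrus; the test of those differences between stimuli is given further on. All 4 GFP+ arrays lay below all 4 GFP- arrays for 30 genes in citrus and for 30 in vehicle, where 11.0% and 9.96% of all tested probe sets did.

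**Figure D2:**
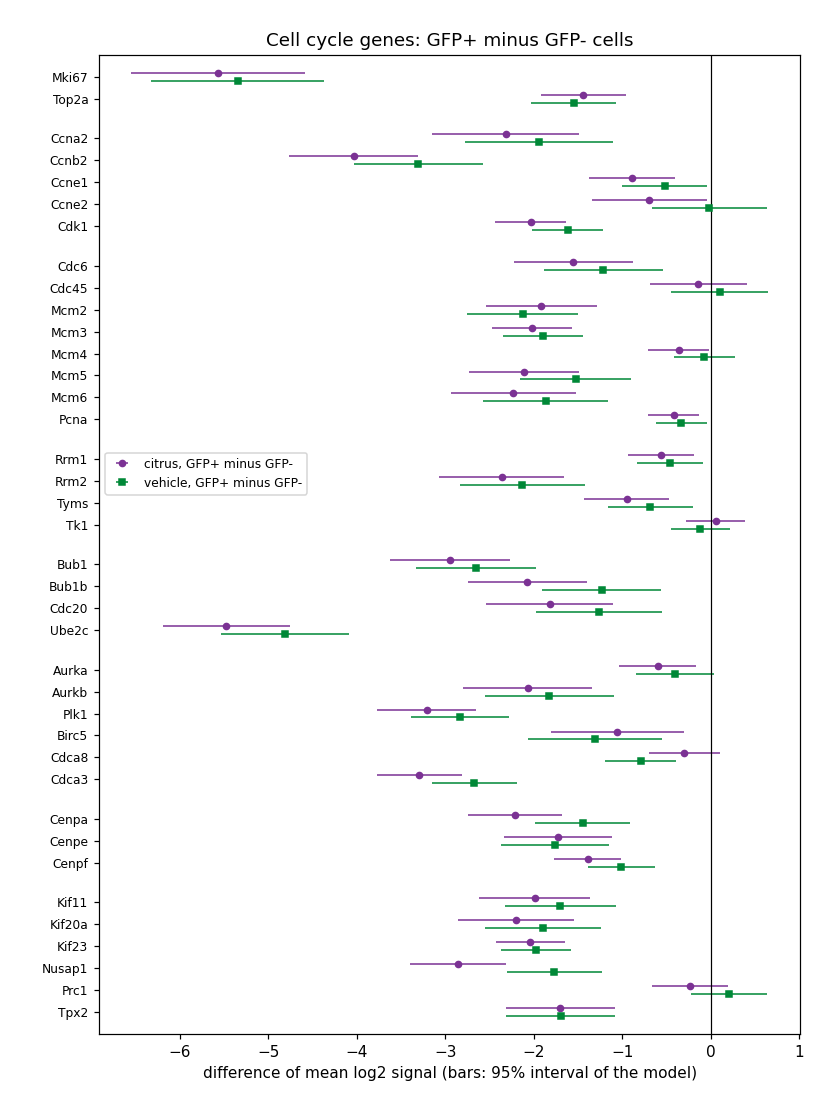
GFP+ minus GFP- difference in mean log2 signal (x axis) of each of the 38 genes, in citrus (purple circles) and vehicle (green squares), with the 95% interval of limma's model as bars and genes ordered by role. Mki67, Ube2c and Ccnb2 lie farthest to the left, and the intervals of Tk1, Prc1 and Cdc45 span 0 in both stimuli.

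The proliferation antigen and the chromosome-untangling enzyme were both lower in GFP+ cells. Mki67 encodes Ki-67, which coats mitotic chromosomes and marks cycling cells. In citrus its levels in pools 1 to 4 were 4.91, 5.70, 4.63 and 4.80 in GFP+ cells, against 10.25, 10.72, 11.34 and 10.03 in GFP- cells. In vehicle they were 6.01, 4.10, 3.90 and 5.01 in GFP+ cells, against 9.54, 9.22, 10.39 and 11.27 in GFP- cells. Every GFP- array was thus far above every GFP+ array, by -5.57 ± 0.47 in citrus (adjusted p = 8.2e-08) and -5.35 ± 0.47 in vehicle (1.73e-07). Since all GFP+ arrays were under the control level, Mki67 was at least 3.07-fold lower in GFP+ cells in citrus and at least 1.69-fold lower in vehicle, with the GFP+ level set to the control level of each array. These bounds hold on the deposited scale, which may be stretched, and not for RNA itself. Top2a, DNA topoisomerase II alpha, stood in citrus at 5.49, 6.74, 5.86 and 5.95 in GFP+ cells, against 7.63, 7.15, 7.72 and 7.28 in GFP- cells. In vehicle it stood at 5.63, 5.63, 5.76 and 5.9 in GFP+ cells, against 6.91, 7.22, 7.52 and 7.47 in GFP- cells, again without overlap. Its difference was -1.44 ± 0.23 in citrus (adjusted p = 0.000129) and -1.55 ± 0.23 in vehicle (6.85e-05). In an exact two-sided permutation test of 4 arrays against 4, Mki67 and Top2a each had p = 0.0286 for both gate comparisons, the smallest that 70 assignments can give, and 0.0571 after adjustment over 8 such tests.

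Among the cyclins and the mitotic kinase they serve, 4 of 5 measured genes were lower in GFP+ cells in citrus and 3 of 5 in vehicle. Ccnb2, a B-type cyclin of mitotic entry, had in citrus levels of 5.88, 5.35, 5.43 and 6.02 in GFP+ cells, against 9.06, 9.53, 10.20 and 10.04 in GFP- cells. Its vehicle levels were 5.38, 6.17, 6.16 and 5.34 in GFP+ cells, against 8.47, 8.36, 9.42 and 10.02 in GFP- cells. The gates stood well apart, with differences of -4.04 ± 0.35 in citrus and -3.30 ± 0.35 in vehicle (adjusted p = 1.12e-07 and 1.49e-06). On the deposited scale Ccnb2 was at least 1.67-fold lower in citrus, where all 4 GFP- arrays exceeded the control level. Cdk1, the kinase that cyclins A and B activate, was dim in every group. It stood in citrus at 2.65, 2.53, 2.08 and 2.59 in GFP+ cells, against 4.13, 4.27, 4.74 and 4.84 in GFP- cells. In vehicle it stood at 2.33, 2.35, 2.25 and 2.46 in GFP+ cells, against 4.03, 3.54, 4.13 and 4.15 in GFP- cells. No array of one gate reached the other, and the differences were -2.03 ± 0.19 and -1.62 ± 0.19 (adjusted p = 3.32e-07 and 6.13e-06). Ccna2, the cyclin A of S phase and G2, differed by -2.32 ± 0.40 in citrus and -1.94 ± 0.40 in vehicle. The E-type cyclins, which act at the entry to S phase, differed least. Ccne1 was at -0.89 ± 0.23 in citrus (adjusted p = 0.00974) and at -0.52 ± 0.23 in vehicle (0.129), and it missed the threshold in citrus without citrus replicate 4 (0.0736). Ccne2 had citrus levels of 4.85, 5.18, 5.46 and 3.82 in GFP+ cells, against 5.29, 5.57, 5.65 and 5.56 in GFP- cells. Its vehicle levels were 4.68, 5.11, 4.57 and 5.30 in GFP+ cells, against 4.98, 4.17, 5.08 and 5.48 in GFP- cells. The gates overlapped in both stimuli, and neither -0.69 ± 0.31 in citrus nor -0.01 ± 0.31 in vehicle passed (adjusted p = 0.138 and 0.982).

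Of the 8 measured genes of origin licensing and the replication fork, 6 were lower in GFP+ cells in citrus and 5 in vehicle. Mcm2, Mcm3, Mcm5 and Mcm6, subunits of the replicative helicase, moved by -1.91 ± 0.30, -2.02 ± 0.21, -2.11 ± 0.30 and -2.23 ± 0.34 in citrus. In vehicle the same subunits moved by -2.12 ± 0.30, -1.89 ± 0.21, -1.53 ± 0.30 and -1.87 ± 0.34. The level of Mcm6 in citrus was 5.52, 5.59, 5.40 and 6.50 in GFP+ cells, against 7.57, 7.57, 8.85 and 7.96 in GFP- cells. In vehicle it was 6.32, 5.67, 5.59 and 5.56 in GFP+ cells, against 6.99, 7.25, 8.09 and 8.28 in GFP- cells. The lowest GFP- array stood above the highest GFP+ array in each stimulus (adjusted p = 7.74e-05 and 0.000565). A further subunit, Mcm4, stood in citrus at 7.81, 7.69, 7.72 and 7.69 in GFP+ cells, against 8.04, 7.75, 8.41 and 8.15 in GFP- cells. In vehicle Mcm4 stood at 7.80, 7.99, 7.64 and 8.16 in GFP+ cells, against 7.81, 7.80, 8.06 and 8.21 in GFP- cells. Its gates overlapped, and neither -0.36 ± 0.16 nor -0.07 ± 0.16 passed (adjusted p = 0.146 and 0.812; 95% intervals -0.70 to -0.01 and -0.42 to 0.27). Cdc6, which loads the helicase onto origins, was at -1.55 ± 0.32 in citrus and -1.22 ± 0.32 in vehicle (adjusted p = 0.00168 and 0.012), the vehicle value not past the threshold without vehicle replicate 2 (0.0655) or 3 (0.0738).

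Cdc45, which turns the loaded helicase on, was among the brighter genes and differed little. Its citrus levels were 9.04, 8.22, 8.80 and 8.70 in GFP+ cells, against 9.11, 8.36, 8.98 and 8.87 in GFP- cells. Its vehicle levels were 9.17, 8.12, 8.61 and 8.48 in GFP+ cells, against 8.90, 7.85, 8.82 and 8.41 in GFP- cells. The pool numbered 2 was lowest in all 4 groups, and the gates overlapped, at -0.14 ± 0.26 in citrus and 0.10 ± 0.26 in vehicle (adjusted p = 0.76 and 0.832; 95% intervals -0.69 to 0.41 and -0.45 to 0.65). Pcna, the sliding clamp that also serves DNA repair, was above the control level on all 16 arrays. It was lower in GFP+ cells by -0.42 ± 0.14 in citrus (adjusted p = 0.0437, and 0.0684 with the pool as a block), and stood at -0.33 ± 0.14 in vehicle (0.111). Its citrus call was also lost after centring on the array median (adjusted p = 0.566) and without any one of the 8 pools (0.0537 to 0.272).

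In deoxynucleotide synthesis, 3 of 4 genes were lower in GFP+ cells in citrus and 2 of 4 in vehicle. Rrm2, the S phase subunit of ribonucleotide reductase, had citrus levels of 6.18, 5.52, 5.89 and 5.76 in GFP+ cells, against 8.05, 8.13, 8.73 and 7.90 in GFP- cells. In vehicle it had 5.87, 5.76, 5.31 and 5.08 in GFP+ cells, against 7.64, 6.40, 8.0 and 8.50 in GFP- cells. The gates did not overlap, and the differences were -2.36 ± 0.34 and -2.13 ± 0.34 (adjusted p = 4.19e-05 and 0.000152). Rrm1, the catalytic subunit, was at -0.57 ± 0.18 in citrus (adjusted p = 0.033, 0.0606 to 0.203 without any one of the 4 citrus pools, and 0.246 after centring on the array median) and -0.46 ± 0.18 in vehicle (0.0819). Tyms, thymidylate synthase, was lower by -0.95 ± 0.23 in citrus and -0.68 ± 0.23 in vehicle (adjusted p = 0.0061 and 0.0448), with 0.0509 in citrus without citrus replicate 1. The vehicle call was lost without vehicle replicate 1, 2 or 4 or citrus replicate 2 or 3 (0.0587 to 0.166). Tk1, the cytosolic thymidine kinase of the salvage route, stood in citrus at 4.65, 4.25, 4.14 and 4.55 in GFP+ cells, against 4.23, 4.32, 4.64 and 4.17 in GFP- cells. In vehicle Tk1 stood at 4.17, 4.31, 4.23 and 4.35 in GFP+ cells, against 4.07, 4.48, 4.48 and 4.49 in GFP- cells. All its values lay under the control medians, and the differences of 0.06 ± 0.16 and -0.12 ± 0.16 did not pass (adjusted p = 0.838 and 0.67; 95% intervals -0.28 to 0.39 and -0.45 to 0.22).

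All 4 genes of the spindle checkpoint and of APC/C activation were lower in GFP+ cells in both stimuli. Ube2c, the ubiquitin-conjugating enzyme of the APC/C, had the largest difference of the 38 genes after Mki67. Its citrus levels were 3.40, 3.40, 4.23 and 3.27 in GFP+ cells, against 8.70, 8.65, 9.97 and 8.89 in GFP- cells. In vehicle they were 3.07, 3.45, 3.59 and 3.49 in GFP+ cells, against 7.51, 7.65, 9.06 and 8.62 in GFP- cells. A wide gap separated the gates, with -5.48 ± 0.34 in citrus and -4.81 ± 0.34 in vehicle (adjusted p = 2.59e-09 and 1.37e-08). Cdc20, the activator that targets the APC/C to securin and cyclin B, stood in citrus at 2.70, 2.76, 2.23 and 2.56 in GFP+ cells, against 3.64, 4.40, 5.22 and 4.28 in GFP- cells. In vehicle it stood at 3.24, 3.24, 3.02 and 2.93 in GFP+ cells, against 3.52, 3.88, 4.78 and 5.30 in GFP- cells. Each GFP- array exceeded every GFP+ array of its stimulus. The differences were -1.82 ± 0.34 and -1.26 ± 0.34 (adjusted p = 0.000651 and 0.0134), and the vehicle call was lost without vehicle replicate 3 (0.0828) and without vehicle replicate 4 (0.115). The checkpoint kinases Bub1 and Bub1b were at -2.94 ± 0.32 and -2.07 ± 0.32 in citrus and at -2.65 ± 0.32 and -1.23 ± 0.32 in vehicle. Without vehicle replicate 2, Bub1b missed the threshold in vehicle (adjusted p = 0.0701).

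Of the mitotic kinases, chromosomal passenger subunits and Cdca3, 4 of 6 were lower in GFP+ cells in citrus and 5 of 6 in vehicle. Plk1, the polo-like kinase of mitotic entry and exit, had citrus levels of 5.13, 5.31, 5.05 and 4.80 in GFP+ cells, against 7.55, 8.35, 8.90 and 8.34 in GFP- cells. Its vehicle levels were 4.81, 5.16, 5.35 and 4.52 in GFP+ cells, against 7.38, 7.51, 8.24 and 8.04 in GFP- cells. The gates were far apart, by -3.21 ± 0.26 and -2.83 ± 0.26 (adjusted p = 6.76e-08 and 3.99e-07). Cdca3, a trigger of mitotic entry that helps degrade the kinase Wee1, stood in citrus at 4.74, 4.04, 4.41 and 4.59 in GFP+ cells, against 7.31, 8.03, 7.77 and 7.83 in GFP- cells. In vehicle it stood at 4.77, 4.39, 4.01 and 4.32 in GFP+ cells, against 7.24, 6.42, 7.21 and 7.31 in GFP- cells. No GFP+ array reached a GFP- array, and the differences were -3.29 ± 0.23 and -2.67 ± 0.23 (adjusted p = 8.64e-09 and 1.41e-07). Aurkb, the kinase of the chromosomal passenger complex, was lower by -2.07 ± 0.35 and -1.82 ± 0.35. Its partners were lower by less: Birc5 (survivin) by -1.06 ± 0.36 in citrus and -1.31 ± 0.36 in vehicle (adjusted p = 0.0485 and 0.0152), and Cdca8 (borealin) by -0.79 ± 0.19 in vehicle, with -0.30 ± 0.19 in citrus (0.00674 and 0.313). The Birc5 call in citrus was lost without any one pool other than citrus replicate 1 (adjusted p = 0.0578 to 0.136), that in vehicle without vehicle replicate 3 (0.0765) or 4 (0.115), and that of Cdca8 without vehicle replicate 3 (0.0723).

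Aurka, the kinase of the spindle poles, had citrus levels of 5.33, 5.13, 5.35 and 5.13 in GFP+ cells, against 5.76, 5.74, 6.18 and 5.65 in GFP- cells. In vehicle it had 4.85, 5.61, 5.99 and 5.24 in GFP+ cells, against 5.64, 6.12, 5.74 and 5.79 in GFP- cells. The gates stood apart in citrus and overlapped in vehicle. Its difference of -0.60 ± 0.21 in citrus missed the threshold (adjusted p = 0.0541) and passed it with the pool as a block (0.032) and without vehicle replicate 1 (0.0292) or 3 (0.0352), while -0.40 ± 0.21 in vehicle did not pass (0.199).

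The 3 centromere and kinetochore genes were lower in GFP+ cells in both stimuli. Cenpa, the histone variant that marks centromeres, had citrus levels of 5.48, 5.57, 6.08 and 5.97 in GFP+ cells, against 7.27, 8.43, 8.21 and 8.04 in GFP- cells. In vehicle it had 5.87, 5.70, 6.31 and 5.87 in GFP+ cells, against 6.88, 7.45, 7.28 and 7.92 in GFP- cells. The groups of each stimulus did not overlap, and Cenpa differed by -2.21 ± 0.25 and -1.45 ± 0.25 (adjusted p = 3.77e-06 and 0.000464). Cenpf, a large kinetochore protein of G2 and mitosis, stood in citrus at 3.47, 3.56, 3.86 and 3.87 in GFP+ cells, against 4.98, 5.28, 5.38 and 4.67 in GFP- cells. In vehicle it stood at 3.76, 3.87, 3.90 and 4.16 in GFP+ cells, against 4.90, 4.61, 5.12 and 5.09 in GFP- cells. It too was separated, by -1.39 ± 0.18 and -1.01 ± 0.18 (adjusted p = 1.41e-05 and 0.000496). Cenpe, a kinetochore motor, was at -1.72 ± 0.29 in citrus and -1.76 ± 0.29 in vehicle.

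Among spindle motors and midzone proteins, 5 of 6 were lower in GFP+ cells in both stimuli. Nusap1, which bundles spindle microtubules, had citrus levels of 4.39, 4.54, 4.86 and 4.11 in GFP+ cells, against 6.88, 7.51, 7.54 and 7.41 in GFP- cells. Its vehicle levels were 4.52, 4.79, 4.27 and 4.64 in GFP+ cells, against 5.69, 5.91, 6.78 and 6.91 in GFP- cells. The gates were separate, at -2.86 ± 0.26 and -1.77 ± 0.26 (adjusted p = 1.98e-07 and 6.51e-05). The motors Kif11, Kif20a and Kif23, which build the spindle and the midzone, were at -1.99 ± 0.30, -2.21 ± 0.31 and -2.04 ± 0.19 in citrus and at -1.70 ± 0.30, -1.89 ± 0.31 and -1.97 ± 0.19 in vehicle. Tpx2, which activates Aurka on the spindle, was at -1.70 ± 0.29 in both. Prc1, which crosslinks midzone microtubules, stood in citrus at 5.86, 6.17, 6.50 and 6.70 in GFP+ cells, against 6.42, 6.61, 6.45 and 6.67 in GFP- cells. In vehicle Prc1 stood at 6.48, 6.42, 7.08 and 6.59 in GFP+ cells, against 6.71, 5.99, 6.59 and 6.46 in GFP- cells. Its gates overlapped and did not pass, at -0.23 ± 0.20 and 0.20 ± 0.20 (adjusted p = 0.476 and 0.541; 95% intervals -0.66 to 0.20 and -0.23 to 0.63).

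The arrays' overall level differed between the gates. Centring each array on its own median moved every gate difference by 0.33 in citrus and 0.28 in vehicle, and centring on mature OSN markers moved it by -0.35 and -0.30. The count of lower genes was 27 and 36 in citrus and 28 and 33 in vehicle under these 2 centrings, with 0 higher in each. The shares of all tested probe sets, which centring also moves, are not given for these 2 settings. The direction of Cdc45, Prc1 and Tk1 turned under one or the other centring in both stimuli, that of Ccne2 and Mcm4 in vehicle, and that of Cdca8 in citrus, none of which had passed there.

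The second comparison asked whether citrus changed cell cycle transcripts within a gate. No gene passed in GFP- cells (limma: 0 lower and 0 higher, where 0.00511% and 0.0102% of all tested probe sets passed); at an unadjusted p under 0.05, 6 were higher and 0 lower, where 5.88% of all tested probe sets passed in either direction. The difference was above 0 for 35 of 38 genes, beside 52.0% of all tested probe sets, with a median of 0.29. These genes moved together from array to array, so the 35 are not separate results, and the median was 0.10 without citrus replicate 3 and 0.16 without vehicle replicate 2. Nusap1 had the smallest p, at 1.01 ± 0.26 (adjusted p = 0.688 by limma, 95% interval 0.47 to 1.55): its lowest citrus array, 6.88, lay just under the highest vehicle array, 6.91. Cdca3 followed at 0.69 ± 0.23 (adjusted p = 0.808, 95% interval 0.21 to 1.17), and Cdk1 at 0.53 ± 0.19 (adjusted p = 0.824, 95% interval 0.13 to 0.93). For Mki67 the interval ran from -0.50 to 1.46 and for Top2a from -0.31 to 0.64, and the exact permutation p was 0.429 and 0.4 (0.522 for both after adjustment over the 8 tests). In the same GFP- arrays 8 of 8 early granulocyte markers (median 0.47) and 7 of 7 erythroid markers (median 0.77) also had positive differences, as did 7 of 7 monocyte and macrophage markers (median 0.43), 6 of 8 sustentacular markers (median 0.78) and 7 of 8 globose basal cell markers (median 0.17). Late neutrophil markers had 5 of 10 (median -0.01) and B cell precursor markers 2 of 8 (median -0.16), and no marker of these 7 lists passed the threshold. Their part in the shift of the cell cycle genes was not tested.

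In GFP+ cells 0 genes passed in either direction (limma; 0 at an unadjusted p under 0.05 too, where 4.06% of all tested probe sets passed), where 0% of all tested probe sets were lower and 0.0204% higher. The median difference was 0.07, with 22 of 38 genes above 0, beside 51.4% of all tested probe sets. Bub1b had the smallest p, at -0.56 ± 0.32 (adjusted p = 0.999). The test of the difference between stimuli itself, the gate difference in citrus minus that in vehicle, passed for 0 genes (limma; 2 lower and 0 higher at an unadjusted p under 0.05, where 3.69% of all tested probe sets passed, and 0% past the adjusted threshold). Its median was -0.29, Nusap1 was at -1.09 (adjusted p = 0.999) and Cenpa at -0.77 (adjusted p = 0.999). The genes that passed the gate test in one stimulus alone, Ccne1, Pcna, Rrm1 and Cdca8, are thus not shown to differ between stimuli.

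**Figure D3:**
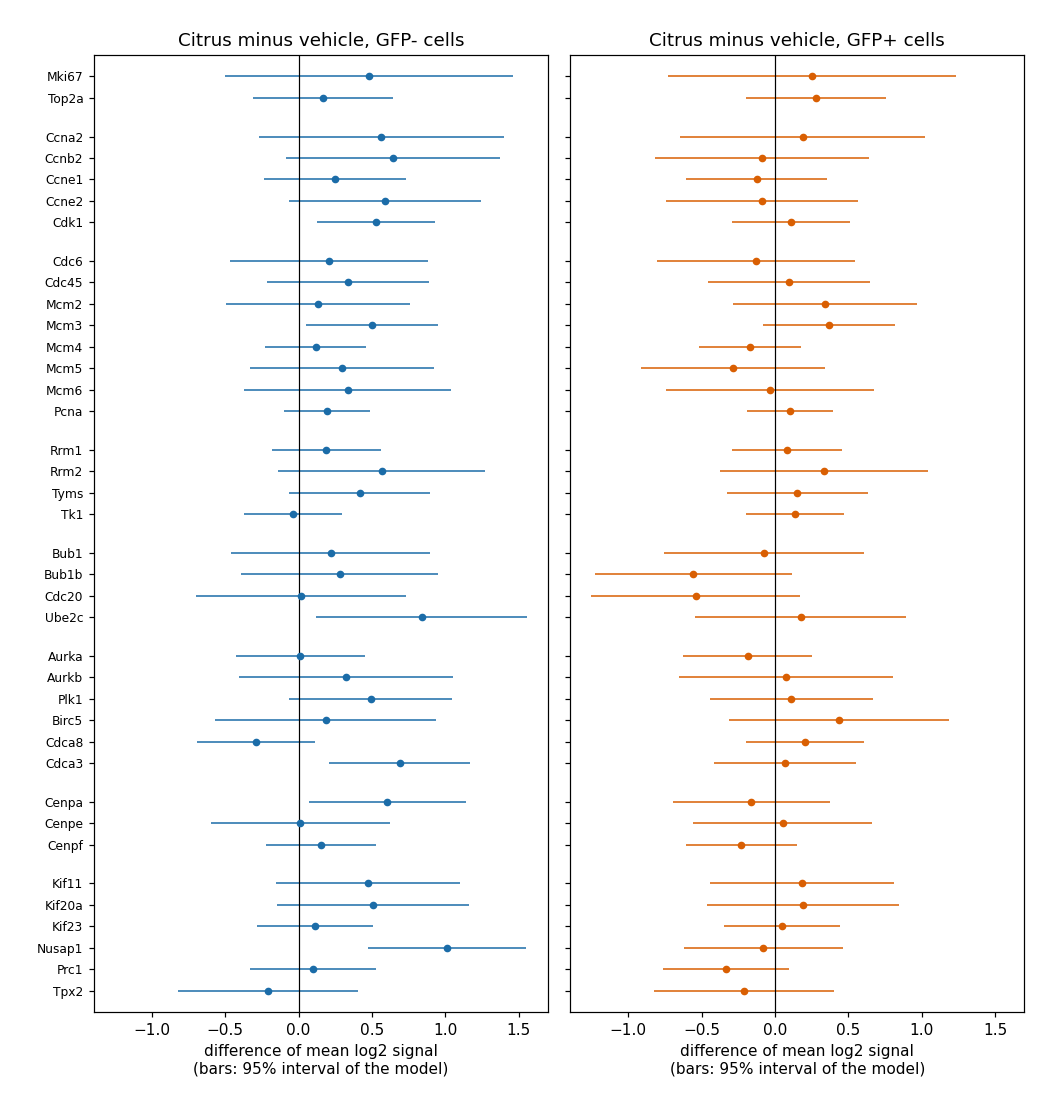
Citrus minus vehicle difference in mean log2 signal (x axis) of each of the 38 genes in GFP- cells (left) and GFP+ cells (right), with the 95% interval of limma's model as bars. In GFP- cells 35 of 38 points lie right of 0 and most intervals span it, and Nusap1 lies farthest right at 1.01.

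Other genes of the cell cycle were counted from lists by function, beside 10.8% of all tested probe sets that were lower in citrus and 9.97% in vehicle. How these lists differ from the 38 genes was not tested. Among 37 further mitosis genes, 21 were lower in GFP+ cells in citrus and 15 in vehicle, with 0 higher (0 at an unadjusted p under 0.05 by limma), and medians of -0.85 and -0.79. Kif15, a spindle motor, had the largest difference of these at -2.70 in citrus and -1.92 in vehicle, and Smc4, a condensin subunit above the control level on all 16 arrays, was at -1.34 ± 0.21 and -1.11 ± 0.21. Among 28 further replication genes, 5 in citrus and 3 in vehicle were lower, the vehicle count being near the share of all tested probe sets, with medians of -0.19 and -0.16. Cdt1, which loads the helicase with Cdc6, was at -1.70 and -1.55. The gene Uhrf1, which guides DNA methylation after replication, was at -1.24 and -0.92. Of 6 cyclins and kinases of G1, 4 were lower in each stimulus, with Cdk2, the partner of cyclins E and A, at -3.10 ± 0.28 and -3.56 ± 0.28. Ccnd3, a D-type cyclin, was at -2.46 ± 0.29 and -2.75 ± 0.29.

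Of 18 E2F, pocket protein and MuvB factors, 4 were lower in GFP+ cells in each stimulus, and 1 was higher in citrus. That 1 higher gene is near the share of all tested probe sets that were higher in citrus, 7.44%. E2f2, an activator, was at -4.83 ± 0.38 in citrus and -4.06 ± 0.38 in vehicle, and E2f8, a late repressor, at -4.64 ± 0.38 and -3.48 ± 0.38. Rbl1 (p107) was at -1.29 ± 0.26 in both, and Mybl2 (B-Myb), which joins MuvB at mitotic promoters, at -1.01 ± 0.28 and -0.99 ± 0.28. E2f5, a repressor that binds pocket proteins, was higher by 0.45 ± 0.15 in citrus (adjusted p = 0.0419), with 0.32 ± 0.15 in vehicle (0.148). Of 7 CDK inhibitors, which hold the cycle back, 3 were lower in citrus and 1 in vehicle, the vehicle count again near the share of all tested probe sets. The inhibitor Cdkn1b (p27) was at -5.13 ± 0.46 and -4.85 ± 0.46, in the same direction as most of the cell cycle genes. Of 13 genes of the APC/C core, which neurons also use after they stop dividing, 1 was lower in citrus (Anapc5, -0.44 ± 0.15) and 2 were higher in vehicle (Cdc26, 0.51 ± 0.14, and Anapc2, 0.43 ± 0.14), where 9.05% of all tested probe sets were higher. Counts this small among 13 genes are near the shares of all tested probe sets and show nothing particular to the APC/C core.

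The label of these genes speaks of dividing progenitors, so markers of the cells that the GFP- gate could hold were read on the same arrays. For every marker list, the share of all tested probe sets that were lower in GFP+ cells was 10.8% in citrus and 9.97% in vehicle. Of 8 measured globose basal cell markers, 5 were lower in GFP+ cells in each stimulus. Kit, a receptor kinase found on these progenitors and also on early blood cells and mast cells, was at -3.38 ± 0.32 in citrus and -3.46 ± 0.32 in vehicle. Neurog1, the proneural factor of late progenitors, had citrus levels of 3.29, 3.36, 3.09 and 2.93 in GFP+ cells, against 4.35, 4.21, 3.69 and 4.13 in GFP- cells, a difference of -0.93 ± 0.21 (adjusted p = 0.00311 by limma). Its vehicle levels were 2.80, 3.03, 3.29 and 3.51 in GFP+ cells, against 3.59, 3.57, 4.33 and 3.66 in GFP- cells, a difference of -0.63 ± 0.21 (adjusted p = 0.0403 by limma). The gates did not overlap in either stimulus, and all 16 values lay under the control medians of the arrays. All 8 lay under the control level on all 16 arrays, with list means of 4.28 to 4.57 in citrus GFP+ cells and 5.41 to 5.96 in citrus GFP- cells. In vehicle the list means were 4.26 to 4.52 in GFP+ cells and 5.18 to 5.71 in GFP- cells.

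Markers of blood-forming cells, whose early stages also divide, moved with the same gate. Of 8 early granulocyte markers, 8 were lower in GFP+ cells in citrus and 7 in vehicle, with list means of 4.25 to 4.81 in citrus GFP+ cells and 7.83 to 10.1 in citrus GFP- cells. In vehicle those means were 4.53 to 4.85 in GFP+ cells and 7.57 to 9.05 in GFP- cells. Mpo, the myeloperoxidase made by granulocyte precursors, had citrus levels of 4.55, 5.63, 5.57 and 6.72 in GFP+ cells, against 12.49, 14.44, 15.36 and 13.74 in GFP- cells. In vehicle it had 5.74, 5.52, 5.98 and 6.43 in GFP+ cells, against 11.71, 13.55, 13.99 and 14.75 in GFP- cells. Mpo and Elane, neutrophil elastase, were above the control level on all 8 GFP- arrays and under it on all 8 GFP+ arrays. Of 7 erythroid markers, 6 were lower in citrus and 5 in vehicle, with list means of 4.47 to 4.73 in citrus GFP+ cells and 6.67 to 8.11 in citrus GFP- cells, and of 4.56 to 4.85 in vehicle GFP+ cells and 5.71 to 7.63 in vehicle GFP- cells. Car1, an erythroid carbonic anhydrase, was at -4.75 ± 0.55 and -4.02 ± 0.55. Of 8 B cell precursor markers, 3 were lower in each stimulus, while Vpreb1, which defines those precursors, stood at -0.14 ± 0.21 and 0.31 ± 0.21 and did not pass.

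Further markers moved with the gate as well. In citrus and in vehicle all 10 late neutrophil, all 7 monocyte and macrophage and all 3 tuft-like microvillous markers were lower in GFP+ cells. The mean of the late neutrophil list was 5.23 to 6.10 in citrus GFP+ cells and 13.3 to 15.2 in citrus GFP- cells, and 5.28 to 6.57 in vehicle GFP+ cells and 14.0 to 15.2 in vehicle GFP- cells. The immature OSN list, cells that have just left the cycle, had 5 of 6 lower in citrus and 6 of 6 in vehicle. Of 5 T and NK cell markers, 4 and 3 were lower, and of 4 mast cell and basophil markers, 2 and 2. Of 6 horizontal basal cell markers 1 and 1 were lower, of 8 sustentacular markers 1 and 1, of 2 ensheathing glia markers 0 and 1, and 0 of 3 endothelium and 0 of 4 stroma markers (limma; at an unadjusted p under 0.05, 1 endothelium marker in each stimulus and 0 stroma markers). Counts of 0 or 1 in lists this short cannot be set apart from the shares of all tested probe sets that were lower. Mature OSN markers had 4 of 12 higher in citrus and 3 in vehicle, where 7.44% and 9.05% of all tested probe sets were higher. Of these markers 0 were lower (0 at an unadjusted p under 0.05 by limma too). Which of these cells carried the cell cycle transcripts, and the part of each cell type in their gate difference, was not tested, so the genes are called cell cycle genes here and not progenitor genes.

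**Figure D4:**
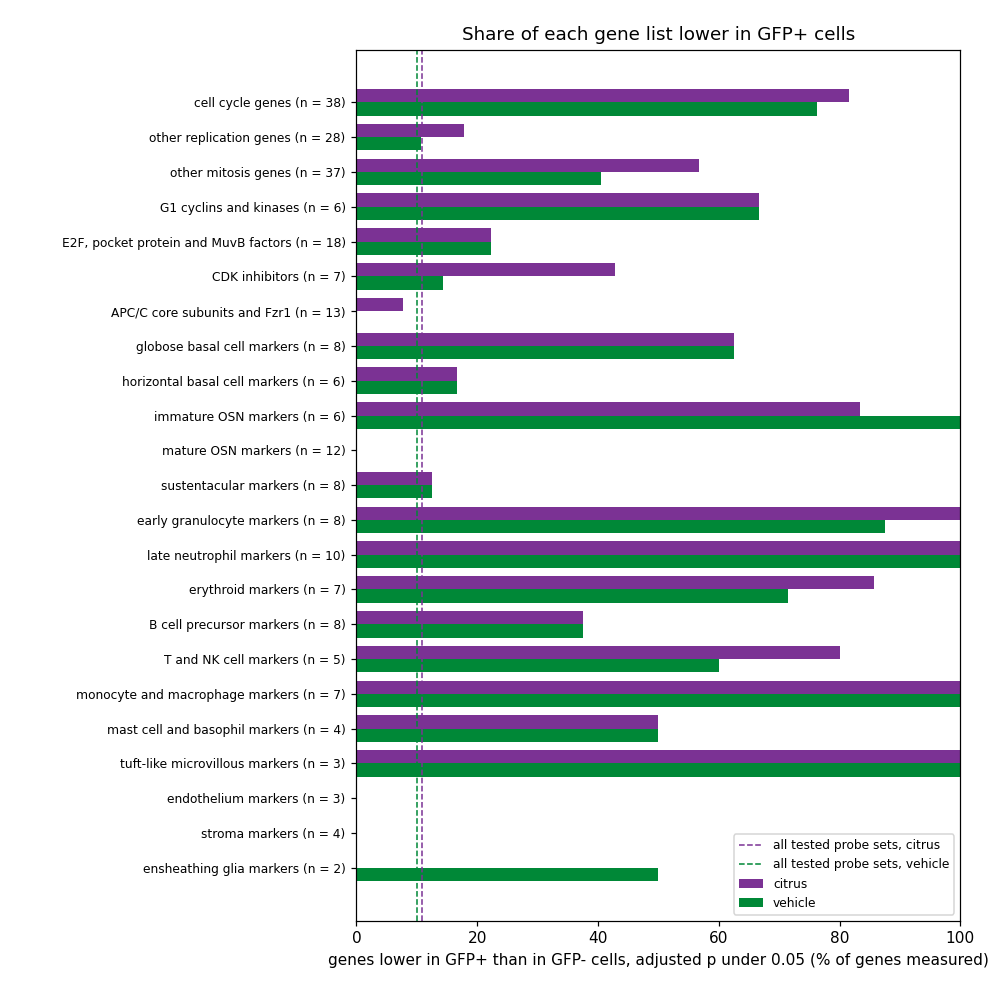
Share of the measured genes of each list that were lower in GFP+ than in GFP- cells (x axis, percent, limma adjusted p under 0.05), in citrus (purple) and vehicle (green); n is the number of genes measured and dashed lines give the share of all tested probe sets. The bars of the cell cycle genes stand at 31 and 29 of 38, those of the immature OSN list at 5 and 6 of 6, of the erythroid list at 6 and 5 of 7 and of the early granulocyte list at 8 and 7 of 8, while the bars of further replication genes stand at 5 and 3 of 28.

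Across arrays of a gate, the cell cycle genes moved together in GFP- cells. Over 8 GFP- arrays the median Pearson correlation of 703 gene pairs was 0.49, with 87.6% of pairs above 0, whereas over 8 GFP+ arrays it was -0.02, with 47.1% above 0. These values describe arrays that share gates, stimuli and array levels, and most GFP+ signals were near background. No such correlation is given over all tested probe sets, so the shared movement is not shown to be particular to the cell cycle genes. To see which cell type markers ran with the proliferation antigen, Mki67 was set against 15 genes over the 8 GFP- arrays, the leading gate gene of each cell type list that had one and Neurog1, chosen after values were seen. Pearson's r was 0.76 with Mpo (permutation p = 0.0277, adjusted p = 0.138 over 15) and Spearman's rho was 0.88 (exact permutation p = 0.00724, adjusted p = 0.109). Leaving out the 2 arrays farthest from the median of Mpo gave r = 0.57, and removing the stimulus means gave 0.75. With Ly6c2, a monocyte gene, r was 0.81 and rho 0.81 (permutation p = 0.0192 and 0.0218), and r was 0.89 without the 2 farthest arrays. With Itga6, an integrin on the horizontal basal cell list, r was 0.77 and rho 0.81 (permutation p = 0.0195 and 0.0218), and r was 0.44 without the 2 farthest. Itga6 was the only 1 of 6 measured markers of that list lower in GFP+ cells in vehicle, so it does not stand for these cells. With the progenitor markers Kit and Neurog1, r was 0.43 and 0.11 and rho 0.40 and 0.33 (permutation p of r 0.279 and 0.779, of rho 0.327 and 0.428). Every Neurog1 value lay under the control median of its array, and Kit lay under the control level on all 16 arrays. Their r can therefore not be ranked against that of brighter genes such as Mpo. Over the remaining genes r ran from -0.04 with Trpm5, a tuft-like microvillous marker, to 0.69 with Car1, and was 0.24 with Lcn2, a late neutrophil gene. No relation passed after adjustment over the 15 (the smallest adjusted permutation p was 0.138 for Pearson's r and 0.109 for Spearman's rho), and 4 arrays per stimulus were too few for a relation within one.

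**Figure D5:**
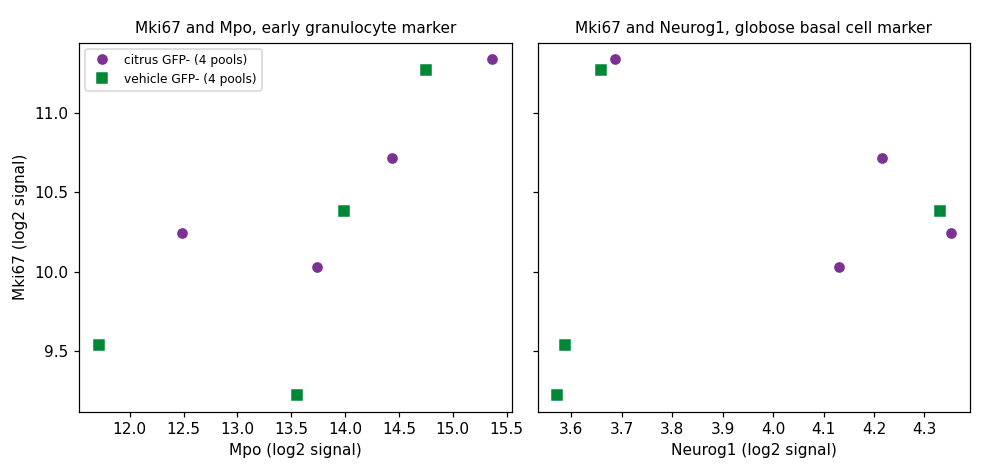
Level of Mki67 (log2 signal, y axis) against that of Mpo (left, x axis) and Neurog1 (right, x axis) on the 8 GFP- arrays, citrus as purple circles and vehicle as green squares. The array with the highest Mki67, 11.34, also has the highest Mpo, 15.36, and its Neurog1, 3.69, lies within the range of the other arrays. Only Mpo and Neurog1 of the 15 genes are drawn, and every Neurog1 value lay under the control median of its array.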

How the data were processed

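RNA of 16 sorted samples (4 groups of 4 pools, 3 mice each; 50 to 100 ng RNA) was hybridised to Clariom S arrays. The authors' deposited table holds log2 values per probe set, for which the submitters' processing notes name Affymetrix Expression Console; 1 sample label names the SST-RMA gene-level signal, which transforms the scale, so log2 differences may be stretched. No source used here gives its version or a genome build. Deposited values were used as they stand. Scanner files were not used here, so precision rests on the 4 arrays a group.

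Of 28846 probe sets, 19572 with 1 gene symbol entered limma 3.58.1 (R 4.3.3), with a mean per group over all 16 arrays, empirical Bayes, two-sided, Benjamini-Hochberg over all 19572, threshold 0.05. Left out were 6640 controls and 2634 probe sets without exactly 1 symbol. A gene with several probe sets stood by the brightest. The steps were run on simulated data with independent arrays and no pool effect, which checks the steps and not the calls made here. 24 mice in pools of 3 make 8 pools, so the GFP+ and GFP- arrays with the same number in a stimulus were taken as 1 pool; deviations of such pairs correlated at 0.075 to 0.275. The pool as a block was an alternative. Separate pools make the replicates biological.

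Members and lists were chosen with earlier results of these data known. Named with array values were Mki67, Top2a, the members with the largest and smallest gate difference of each role, those passing in neither stimulus, and the 3 smallest p for citrus in GFP- cells; from other lists, mainly the 3 largest vehicle gate differences that passed and a few fixed names. Promoters are RefSeq's (GRCm38.p6). The permutation tests were exact over 70 assignments. Alternatives were the pool block, centring, array weights, priors, filters, a threshold of 0.01 and leaving out each pool.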

Additional observations from a re-analysis of the deposited data

Results flagged for a closer look

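In groups of 4 arrays, a value whose gap to the nearest other exceeds Dixon's criterion was looked for in 76 groups, the 19 genes given array by array in each of the 4 groups; chance alone marks about 1 in 20 groups. It was met 4 times. Mcm6 stood at 6.32 in vehicle GFP+ replicate 1, above 5.56 to 5.67 on the other 3 arrays. Ube2c stood at 4.23 in citrus GFP+ replicate 3, above 3.27 to 3.40. Tk1 stood at 4.07 in vehicle GFP- replicate 1, below 4.48 to 4.49. Cdca3 stood at 6.42 in vehicle GFP- replicate 2, below 7.21 to 7.31. All 4 values lay under the control level of their arrays.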

How the results depend on the processing

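Over 17 settings, the counts and medians of the cell cycle genes stayed within 1.5 times of the values above or within the replicate spread, except where only probe sets above the control level on at least 4 arrays were kept. That filter left 5 of the 38 genes (Mki67, Ccnb2, Pcna, Rrm1 and Cdc45), of which 4 were lower in GFP+ cells in citrus (median -0.57) and 3 in vehicle (median -0.46). Mki67 and Ccnb2 exceeded the control level on GFP- arrays only, so the filter kept them through the gate where they are high. Their calls under it are no separate support. Leaving out 1 pool at a time gave 27 to 30 lower genes in citrus and 25 to 29 in vehicle, with medians of -1.95 to -1.73 and -1.74 to -1.46. With the pool as a fixed block, 31 genes in citrus and 29 in vehicle were lower; besides Aurka and Pcna in citrus, the block changed no call of a member in the gate comparisons. At a threshold of 0.01 the counts were 28 and 24. Shares of all tested probe sets are not given for this threshold, the filter or the fits without a pool. No gene passed a citrus comparison under any setting. Among the 19 genes given array by array, the direction turned for uncalled ones only. After centring on the array median, Cdc45 was at 0.19 and Prc1 at 0.10 in citrus, and Ccne2 at 0.27, Tk1 at 0.17 and Mcm4 at 0.21 in vehicle. With arrays centred on mature OSN markers, Tk1 was at -0.30 in citrus, and Cdc45 at -0.20 and Prc1 at -0.10 in vehicle. Leaving out 1 pool at a time gave -0.064 to 0.24 for Tk1 in citrus, -0.33 to 0.15 for Ccne2 in vehicle and -0.16 to 0.045 for Mcm4 in vehicle. Most members lay under the control level, which limits how far their differences measure RNA.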
